A study of Mus musculus with 13 samples.

Results

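Transcripts of the collagen chains and of a set of matrix proteins were followed in mouse hearts of 3 Cpt1b genotypes. Symbols of the form Col, number, a, number gave 44 genes, and 16 further symbols were listed by name: glycoproteins (Fn1, Sparc, Fbn1, Postn, Thbs1, Tnc), elastin (Eln), the proteoglycan Bgn, crosslinking enzymes (Lox, Loxl1, Loxl2), proteases (Mmp2, Mmp14) and their inhibitors (Timp1, Timp2, Timp3). Of these 60 genes, 47 averaged at least 1 CPM (counts scaled to the size of the library) over all 13 libraries, out of 24061 symbols counted in all. They were 31 collagen chains and all 16 listed genes. Timp1 (1.22 CPM) lay just inside the threshold and Col9a3 (0.909 CPM) just outside it, and the other 12 collagen genes left out lay below Col9a3.

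The hearts came from male C57BL/6N mice on chow at 13 weeks of age, with 1 poly(A) library of single-end reads per whole heart. E3A/E3A mice (5 hearts) carried on both alleles, and WT/E3A mice (4 hearts) on 1 allele, a knock-in change of CPT1B that makes this enzyme less sensitive to malonyl-CoA, and WT/WT mice (4 hearts) carried none. CPT1B is the muscle form of carnitine palmitoyltransferase 1, which starts the entry of long-chain fatty acids into mitochondria. The labels name no further allele or treatment and do not say whether the mice were littermates. The p-values set genotype differences against the spread between hearts of a genotype, among the hearts in each fit.

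The submitters noted 4 libraries as potential outliers, hearts 1 and 2 of E3A/E3A, heart 1 of WT/E3A and heart 1 of WT/WT, without the reason in the sources used here. Library titles also begin with a prefix whose meaning is not given. All 3 hearts with prefix C2 (E3A/E3A 1 and 2, WT/WT 1) are noted, C3 holds E3A/E3A 3 and 5, WT/E3A 2 and WT/WT 2, C4 holds E3A/E3A 4 and WT/E3A 1, 3 and 4, and C6 holds only WT/WT 3 and 4. Libraries held 20082284 to 52602883 counted reads. The first principal component took 70.6% of the variance and set the noted libraries apart from the other 9, so each genotype comparison is given with all 13 libraries and with the 9 that carry no note. Cpt1b was counted at 1.58 to 3.74 CPM over all libraries. Another annotated gene, Gm44502, covers 94.8% of its exon bases and how reads shared by overlapping genes were counted is not given, so this may not be its level, and counts per gene cannot show the changed codon. Summed cardiomyocyte markers (7 of 7 above 0) reached 105269 to 163611 CPM in the noted libraries and 64818 to 72623 CPM in the other 9. Against the other hearts of their own genotype, 4 of the 7 were higher in all 4 noted libraries and 2 were lower in all 4.

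Collagens are built from chains wound around each other, and each chain repeats a short unit that starts with glycine, the only residue small enough for the inside of the helix. Fibrillar collagens (types I, III, V, XI and XXVII) give tissue its tensile strength, type IV forms the sheet of basement membranes, type VI forms beaded filaments next to cells, and fibril-associated collagens sit on fibril surfaces. In the heart, fibroblasts make most of the fibrillar collagen, while basement membrane surrounds cardiomyocytes and capillaries. LOX enzymes crosslink collagen and elastin, metalloproteinases cut matrix, and TIMPs inhibit them.

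The glycine repeat can be read in the coding sequence. It is shown for the fibrillar chain Col1a1 and the basement membrane chain Col4a1, with periostin (Postn), a matrix protein with no such repeat, for contrast. Each line is 90 coding bases (30 codons) from the GRCm38 genome with GENCODE M21 gene models, with introns left out and glycine codons in capitals. It was taken nearest to the middle of the reading frame. For Col1a1 and Col4a1 only stretches with an unbroken glycine repeat were eligible, and Postn had no such condition. Col1a1 is codons 711 to 740 (chr11:94945847-94946292, + strand), Col4a1 codons 808 to 837 (chr8:11220324-11221018, - strand) and Postn codons 391 to 420 (chr3:54372826-54373715, + strand).
Col1a1: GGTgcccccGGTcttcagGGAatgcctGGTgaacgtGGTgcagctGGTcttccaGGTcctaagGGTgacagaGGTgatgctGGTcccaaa
Col4a1: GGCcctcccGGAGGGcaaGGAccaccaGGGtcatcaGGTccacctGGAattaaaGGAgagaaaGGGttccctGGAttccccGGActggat
Postn: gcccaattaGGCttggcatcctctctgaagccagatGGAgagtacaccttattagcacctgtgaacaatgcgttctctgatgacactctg
These stretches hold 10 glycine codons in Col1a1, 11 in Col4a1 and 2 in Postn. The collagen counts follow from that choice of stretch and are no like-for-like contrast with Postn. Over whole reading frames, glycine took 9.07% (Col6a3) to 28.6% (Col4a1) of codons in the 31 chains. Among the other members Eln had 36.3% and the rest 5.30% (Sparc) to 10.8% (Fbn1).

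Col4a1 and Col4a2 lie head to head on chromosome 8 and are read in opposite directions. They were the collagen chains with the highest level per transcript length in these hearts, and their promoters are shown because the windows overlap. Each window of 300 bases surrounds the RefSeq start site on GRCm38, and the capitals mark the 78 bases (chr8:11312777-11312854) that both windows hold, on opposite strands. The Col4a1 window is chr8:11312777-11313076 (- strand) and the Col4a2 window is chr8:11312555-11312854 (+ strand).
Col4a1: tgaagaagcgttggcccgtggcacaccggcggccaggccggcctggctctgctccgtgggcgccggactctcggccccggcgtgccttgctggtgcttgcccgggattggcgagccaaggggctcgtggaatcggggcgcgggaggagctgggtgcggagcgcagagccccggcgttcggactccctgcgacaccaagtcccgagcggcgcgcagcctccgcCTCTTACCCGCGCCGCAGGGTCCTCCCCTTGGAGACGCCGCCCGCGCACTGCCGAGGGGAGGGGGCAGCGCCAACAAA
Col4a2: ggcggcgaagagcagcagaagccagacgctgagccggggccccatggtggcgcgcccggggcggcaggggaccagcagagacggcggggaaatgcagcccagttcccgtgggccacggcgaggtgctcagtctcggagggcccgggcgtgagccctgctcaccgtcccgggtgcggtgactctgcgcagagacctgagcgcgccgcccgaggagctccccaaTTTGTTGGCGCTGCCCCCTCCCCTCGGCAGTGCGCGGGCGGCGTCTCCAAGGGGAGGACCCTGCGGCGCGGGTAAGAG
On both strands, the letters TATAAA occur in neither window and in 13.6% of 32851 mouse promoter windows of this length. CCAAT occurs 1 time in each window and in 37.4% of all windows. GGGCGG occurs 1 time in the Col4a1 window and 3 times in the Col4a2 window, 1 of them in the shared bases, and in 35.7% of all windows. None of these matches overlaps another. GC content was 74.0% in the Col4a1 window and 73.7% in the Col4a2 window, against a median of 52.7% over all windows.

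Levels between genes were compared as CPM per kilobase of transcript, as the mean and SD over the 9 hearts without the note (n = 9, genotypes together). Sparc, a collagen-binding secreted protein, led with 171 ± 15.0, followed by the type IV chains Col4a1 with 125 ± 9.28 and Col4a2 with 97.6 ± 5.53. Bgn, a small proteoglycan that binds fibrils, had 83.6 ± 5.17, and the type III chain Col3a1 had 64.3 ± 5.34. Both of these type IV chains stood above the fibrillar chains Col3a1, Col1a2 (33.1 ± 2.16) and Col1a1 (30.7 ± 2.15) on this scale, and the other type IV chains stood below them, from Col4a5 (10.7) down to Col4a6 (0.408). Timp3, a matrix-bound inhibitor, had 49.7 ± 12.8, and its SD was the largest share of its mean among the 12 highest members. Col15a1, a basement membrane zone collagen, had 33.0 ± 2.54, Timp2 had 31.8 ± 3.14, and the type VI chains Col6a1 and Col6a2 had 31.7 ± 1.91 and 24.1 ± 1.64. All remaining members lay between 0.220 ± 0.0451 (Col12a1) and 22.4 ± 3.93 (Eln). Over all 13 libraries Col4a1 stood first with 206 ± 151, and the SD shows how far the noted libraries lay from the rest.

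Ratios between chains that assemble with each other were steady for some pairs and not for others (CPM per kilobase). Col4a1 over Col4a2 was 1.34 to 1.41 in the noted libraries and 1.22 to 1.33 in the other 9, a small shift but without overlap. Col1a1 over Col1a2 was 0.936 to 1.10 in the noted libraries and 0.886 to 1.001 in the other 9, although Col1a1 itself ran from 166 to 1111 CPM. Over the 13 libraries the highest of these ratios was 1.16 times the lowest for Col4a1 over Col4a2 and 1.24 times for Col1a1 over Col1a2, against 5.26 times for the level of Col4a1 and 6.69 times for that of Col1a1. Col4a4 over Col4a3 was 2.27 to 2.80 in the noted libraries and 1.41 to 1.95 in the other 9, without overlap. Col4a5 over Col4a6 was 29.2 to 45.8 in the noted libraries and 18.2 to 44.8 in the other 9. In the other 9 the highest ratio was 2.46 times the lowest, against 1.16 times for Col4a5 and 2.38 times for Col4a6. Col4a6 was low, at 1.7 to 4.03 CPM in these 9. Over the 13 libraries the spread was 2.52 times for this ratio, 4.31 times for Col4a5 and 3.63 times for Col4a6.

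The noted libraries held more collagen transcript than any other heart. Members took 0.704% to 1.29% of all counted reads in the 4 noted libraries and 0.440% to 0.549% in the other 9. Summed CPM of the 31 collagen chains was 6337 and 5865 in E3A/E3A hearts 1 and 2, 14164 in WT/E3A heart 1 and 11047 in WT/WT heart 1, against 2904 to 3483 in the other 9. The 16 other members summed to 1508 to 1883 CPM in the noted libraries and 1274 to 1765 CPM in the other 9, so their totals overlapped. How the submitters chose the noted libraries is not given, so these differences are described and not tested.

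Each noted library was set against the 3 hearts of its own genotype without the note. The 31 collagen chains had a median log2 ratio of 1.24 (mean over the 4 noted libraries), and the 16 other members one of 0.04, against -0.02 over the 14387 genes tested. Of the collagen chains, 27 were higher in all 4 noted libraries, as were 36.4% of all genes, and 23 had a ratio of at least 2-fold, as did 6.14% of all genes. The 8 fibrillar chains all exceeded 2-fold, with a median of 1.71. Basement membrane and multiplexin chains had a median of 1.22, beaded filament and network chains 1.06, and fibril-associated chains 0.97.

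Col1a1, a chain of the main fibrillar collagen, had 469 and 384 CPM in E3A/E3A hearts 1 and 2, 1111 in WT/E3A heart 1 and 897 in WT/WT heart 1, against 166 to 203 in the other 9 hearts. Col4a1 had 1699 and 1665 CPM in E3A/E3A hearts 1 and 2, 3928 in WT/E3A heart 1 and 2974 in WT/WT heart 1, against 746 to 938 in the other 9. Both chains were highest in WT/E3A heart 1 and WT/WT heart 1, and the 2 noted E3A/E3A libraries lay between these and the rest. Elastin, the core protein of elastic fibres, went with the collagens (211 and 152 CPM in E3A/E3A hearts 1 and 2, 415 in WT/E3A heart 1 and 333 in WT/WT heart 1, against 68.2 to 119 in the other 9). Chosen after their values were seen, Col7a1 (log2 ratio 2.30), Col11a2 (2.18) and Col16a1 (1.96) had the highest ratios of all members, and Col12a1 had the lowest of the collagen chains (0.10).

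Several matrix genes that are no collagens lay lower in the noted libraries. Bgn had 109 and 122 CPM in E3A/E3A hearts 1 and 2, 76.2 in WT/E3A heart 1 and 75.8 in WT/WT heart 1, against 186 to 226 in the other 9. The log2 ratio was -1.13 for Bgn and -1.07 for Lox, the main collagen crosslinking enzyme, while 9.74% of all genes were at least 2-fold lower. The next were Postn (-0.87), Loxl2 (-0.86), Timp3 (-0.68), fibronectin (Fn1, -0.38) and Timp2 (-0.27). For Bgn, Lox, Postn, Loxl2 and Fn1, all 4 noted libraries lay below the whole range of the other 9. They did so in 5 of 47 members and in 27.1% of all genes, and they lay above that range in 30 members and in 25.9% of all genes.

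**Figure D1:**
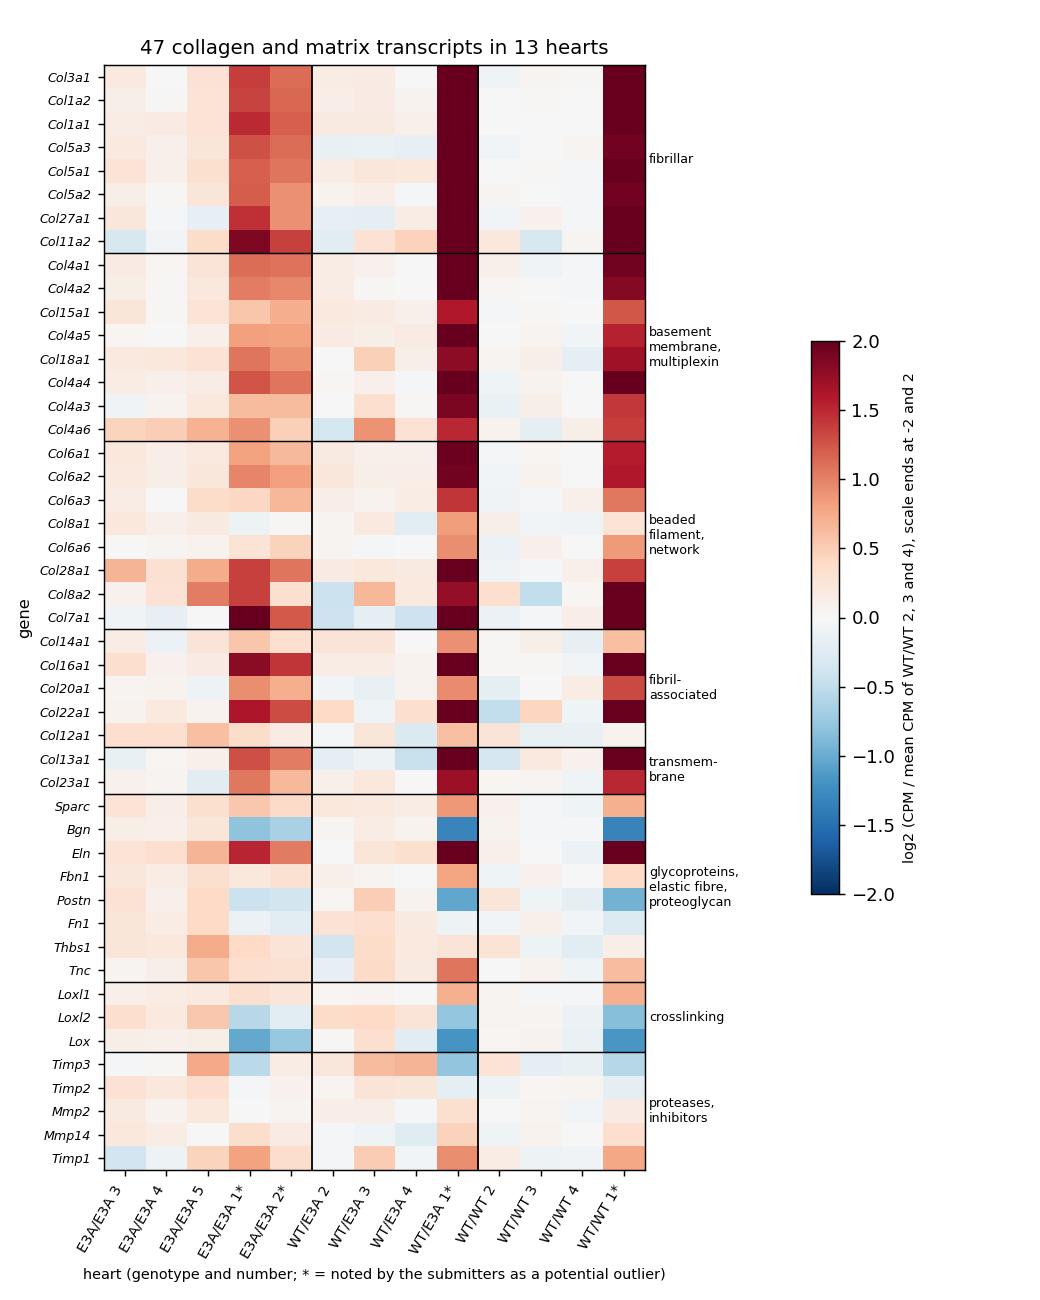
Heat map of 47 members (rows, grouped by matrix class) in 13 hearts (columns, E3A/E3A, WT/E3A, WT/WT), coloured by log2 of CPM over the mean of the 3 WT/WT hearts without the note. The 4 libraries marked with an asterisk are the noted ones: collagen rows are red there (median log2 ratio 1.24 to their own genotype), while Bgn, Lox, Postn and Loxl2 are blue.

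A property of the transcripts moved with this pattern. GC content of the longest coding transcript correlated with the log2 ratio across genes, with Spearman's rho of 0.69 over 13733 genes (Pearson's r 0.68), 0.59 over the 47 members (r 0.66) and 0.56 over the 31 chains (r 0.63). These are correlations across genes that share the same 13 libraries, and genes are not independent replicates. Among transcripts with 55% to 60% GC the median ratio was 1.36 for the 12 collagen chains and 0.51 for all 2789 genes. Between 50% and 55% GC it was 1.16 for 8 collagen chains and 0.16 for 3654 genes. In each of the 4 bands that hold collagen chains, their median lay above that of all genes.

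Markers of other cell types were read beside this. All 8 fibroblast markers (Pdgfra, Tcf21, Dcn, Lum, Gsn, Dpt, Pi16, Mfap5) were above 0 and summed to 2693 to 3438 CPM in the noted libraries and 1858 to 2164 CPM in the other 9, but Gsn alone made up most of it. Their median log2 ratio was -0.15, with 5 lower in all 4 noted libraries and 2 higher in all 4. Lum, a fibroblast proteoglycan, averaged 15.9 CPM in the noted libraries and 49.0 CPM in the other 9, while Pi16, another fibroblast marker, averaged 87.8 CPM in the noted libraries and 42.7 CPM in the other 9. The 6 macrophage markers summed to 191 to 254 CPM in the noted libraries and 131 to 166 CPM in the other 9, without overlap. They did not move together: 3 were higher in all 4 noted libraries and 2 lower in all 4, with a median log2 ratio of 0.25. The sums of endothelial, smooth muscle, epicardial, white adipocyte, Schwann cell, atrial and skeletal muscle markers overlapped. The part of GC content and of cell makeup in the collagen pattern was not tested, and in whole hearts fewer cells of a type and less RNA per cell cannot be told apart.

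**Figure D2:**
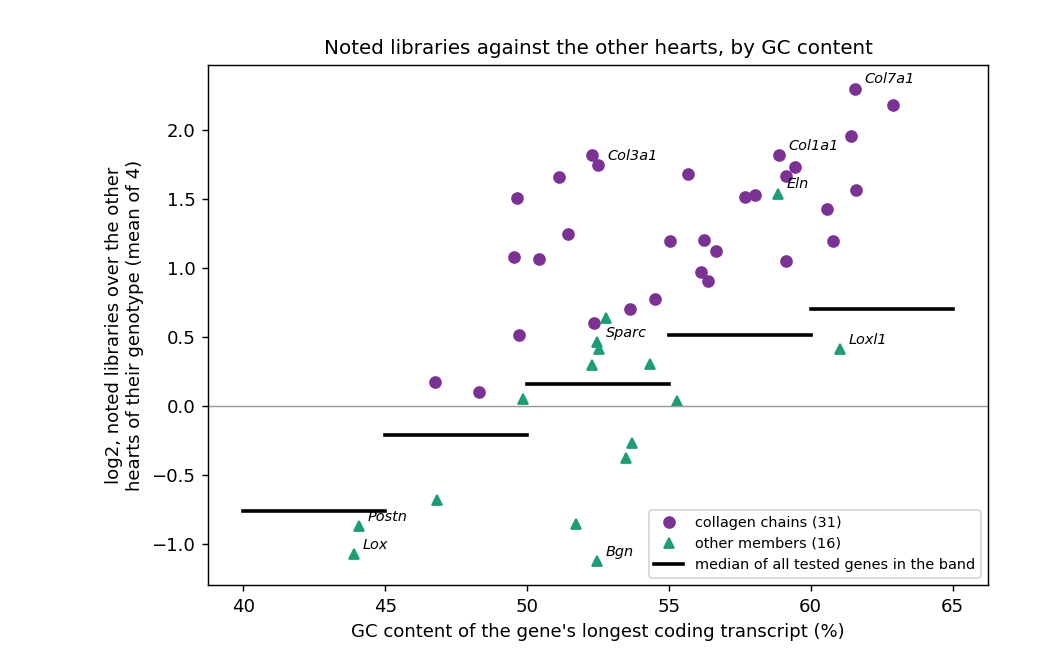
Log2 ratio of the 4 noted libraries to the other hearts of their genotype (y axis, mean of 4) against GC content of the longest coding transcript in percent (x axis), for 31 collagen chains (circles) and 16 other members (triangles). Black bars give the median of all tested genes in bands of GC content, from -0.77 in the lowest band (below 45%) to 0.70 in the highest (60% or more). The bands between them span 5 percentage points each, and all 31 collagen chains lie above 0.

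With all 13 libraries, no member was called in any genotype comparison (edgeR's quasi-likelihood test, Benjamini-Hochberg adjusted p under 0.05 over 14387 genes). Calls over all genes were as rare. They made up 0.00695% (1 gene) where E3A/E3A was set against WT/WT, and 0% both where WT/E3A was set against WT/WT and where E3A/E3A was set against WT/E3A. No member reached an unadjusted p under 0.05 with a higher level either, where 0.584%, 0.327% and 0.883% of all genes did, in the same order of comparisons. The noted libraries set the spread here: the biological coefficient of variation, the typical spread of a gene between hearts of a genotype, was 28.9% over 13 libraries and 7.85% over the 9 without the note.

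The median log2 fold change of the 47 members over 13 libraries was -0.06 where E3A/E3A was set against WT/WT, 0.20 where WT/E3A was set against WT/WT and -0.18 between E3A/E3A and WT/E3A, against -0.016, -0.0018 and -0.015 over all genes. The collagen chains and the other members differed in sign in the first comparison, where 26 of 31 chains had a negative estimate and 14 of 16 other members a positive one. Col1a1 averaged 286 ± 132 CPM in E3A/E3A hearts (SD, n = 5) and 349.9 ± 365 CPM in WT/WT hearts (SD, n = 4), with a log2 fold change of -0.29 and a standard error (SE) of 0.69. Its SD in WT/WT hearts was larger than its mean, since heart 1 carried 897 CPM and hearts 2, 3 and 4 carried 166 to 169 CPM.

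The members with the lowest p over 13 libraries differed little between noted and other hearts (log2 ratios of 0.05 for Thbs1, -0.27 for Timp2 and 0.10 for Col12a1). Thbs1, a matricellular glycoprotein that activates latent TGF-beta, averaged 28.2 ± 4.61 CPM in E3A/E3A hearts and 22.1 ± 3.48 CPM in WT/WT hearts, with a log2 fold change of 0.35 (SE 0.17). Timp2, a metalloproteinase inhibitor, averaged 119.9 ± 11.8 CPM in E3A/E3A hearts and 102 ± 8.64 CPM in WT/WT hearts, a log2 fold change of 0.23 (SE 0.12). Col12a1, a fibril-associated chain, followed with 2.94 ± 0.335 CPM in E3A/E3A hearts and 2.31 ± 0.325 CPM in WT/WT hearts, at 0.34 (SE 0.18). None of the 3 was called, and each had an adjusted p of 0.99998.

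With the note as a covariate in the fit of 13 libraries, 6 members had p under 0.05 before adjustment in E3A/E3A against WT/WT, all with a higher level, as did 4.02% of all genes. They were Timp2 (log2 0.27), Loxl2 (0.41), Bgn (0.31), Fn1 (0.22), Postn (0.38) and Thbs1 (0.34), all matrix proteins or enzymes other than collagens. The lowest adjusted p among them was 0.271, for Timp2, and again none was called. Most members went the other way in this fit: 29 of 47 estimates were negative (median -0.08), as were 27 of 31 collagen chains (median -0.16). The covariate fits 1 shift for all 4 noted libraries, while Col1a1 ran from 384 to 1111 CPM among them.

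In the 9 hearts without the note, E3A/E3A hearts had slightly more of most matrix transcripts than WT/WT hearts, and edgeR called no single member. Of the 47 members, 43 had a positive estimate, against 7268 of 14373 genes in all, and the median log2 fold change was 0.17, against 0.0013 over all genes. An unadjusted p under 0.05 with a higher level was reached by 22 members, against 4.52% of all genes, and by none with a lower level, against 3.17% of all genes. Calls after adjustment numbered 0 of 47 members, against 0.271% (39) of all genes. In 23 members all 3 E3A/E3A hearts lay above all 3 WT/WT hearts, against 7.19% of all genes, and in none did they all lie below.

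**Figure D3:**
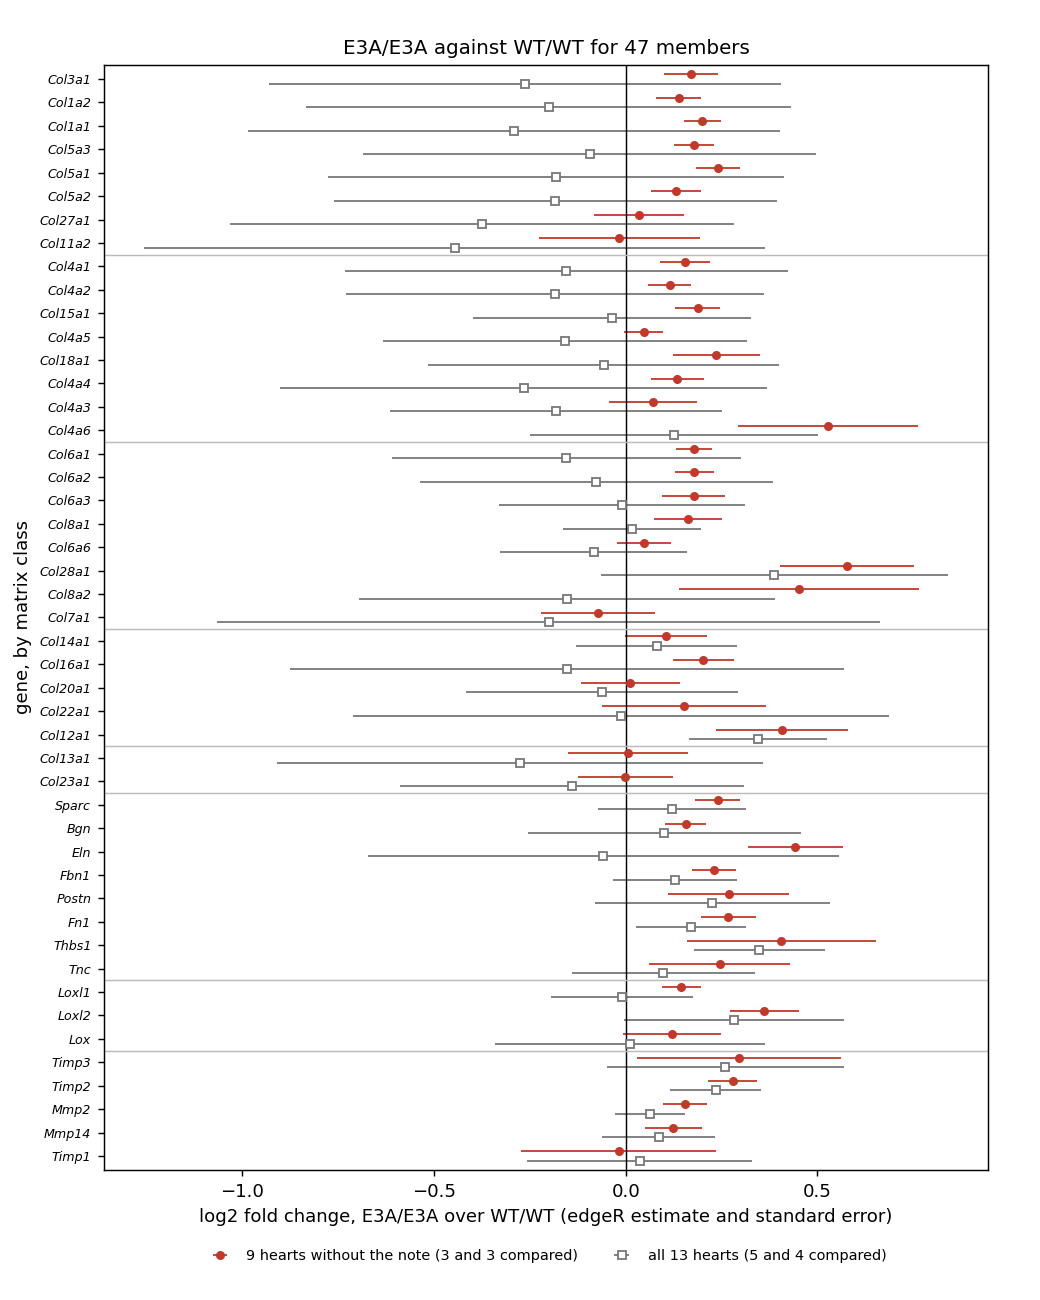
Log2 fold change of E3A/E3A over WT/WT (x axis, edgeR estimate with its standard error) for 47 members (y axis, by matrix class), in the 9 hearts without the note (filled circles) and in all 13 hearts (open squares). In the 9 hearts 43 of 47 estimates lie above 0, with a median of 0.17; over 13 hearts the errors are wide and the median is -0.06.

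Among the fibrillar chains, 5 of 8 had p under 0.05 before adjustment, and the class median was 0.15. Col1a1 had 185, 188 and 203 CPM in E3A/E3A hearts 3, 4 and 5, and 167, 166 and 169 CPM in WT/WT hearts 2, 3 and 4. The groups did not overlap, and the log2 fold change was 0.20 (SE 0.05, adjusted p = 0.159). Col5a1, a chain of type V collagen that sets the width of type I fibrils, averaged 97.5 ± 7.68 CPM in E3A/E3A hearts and 82.6 ± 1.54 CPM in WT/WT hearts (0.24, SE 0.06, adjusted p = 0.144). Col3a1, found with type I in elastic tissues, had 383, 338 and 411 CPM in E3A/E3A hearts and 318, 347 and 342 CPM in WT/WT hearts. Its groups overlapped, and its log2 fold change of 0.17 had an adjusted p of 0.595. Col1a2, the partner of Col1a1 in type I collagen, averaged 183 ± 15.6 CPM in E3A/E3A hearts and 167 ± 1.92 CPM in WT/WT hearts (0.14).

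Among basement membrane and multiplexin chains, all 8 estimates were positive, with a median of 0.14, and 3 had p under 0.05 before adjustment. Col15a1 had 187, 161 and 189.8 CPM in E3A/E3A hearts and 155, 160.0 and 158 CPM in WT/WT hearts (0.19, adjusted p = 0.324). Col4a1 had 874, 804 and 938 CPM in E3A/E3A hearts and 843, 746 and 762 CPM in WT/WT hearts, and Col4a2, whose promoter overlaps that of Col4a1, had 653, 614 and 699 CPM in E3A/E3A hearts and 623, 599 and 593 CPM in WT/WT hearts. Both type IV chains overlapped between the genotypes, with log2 fold changes of 0.15 and 0.11. Col4a3 and Col4a5, chains known from the kidney filter and from Alport syndrome, had 8.13 and 68.8 CPM on average in E3A/E3A hearts and 7.73 and 66.6 CPM in WT/WT hearts, with overlap.

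Among beaded filament and network chains the median was 0.18, with 3 of 8 under an unadjusted p of 0.05. Col6a1 averaged 137 ± 3.95 CPM in E3A/E3A hearts and 121 ± 3.72 CPM in WT/WT hearts (0.18, adjusted p = 0.197), and Col6a2 averaged 117 ± 4.42 CPM in E3A/E3A hearts and 103 ± 4.76 CPM in WT/WT hearts (0.18, adjusted p = 0.269). Col28a1, a low-level chain of the same von Willebrand domain family as type VI, had 2.07, 1.61 and 2.18 CPM in E3A/E3A hearts and 1.24, 1.26 and 1.396 CPM in WT/WT hearts. Its log2 fold change of 0.58 (SE 0.17) was the largest of all members in this comparison, at an adjusted p of 0.302. Col8a1, a chain of vessel wall networks, averaged 28.7 ± 1.14 CPM in E3A/E3A hearts and 25.6 ± 1.75 CPM in WT/WT hearts (0.16), with overlap.

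Fibril-associated chains had a median of 0.15, with 2 of 5 under an unadjusted p of 0.05, and neither transmembrane chain reached it. Col12a1 averaged 3.07 ± 0.348 CPM in E3A/E3A hearts and 2.28 ± 0.390 CPM in WT/WT hearts (0.41, adjusted p = 0.591) without overlap, while Col14a1 (0.11) and Col22a1 (0.15) overlapped. The 4 negative estimates among all members, for Col7a1, Col11a2, Col23a1 and Timp1, lay between -0.073 and -0.0015, and for these 4 the groups overlapped. For Timp1 and Col11a2 the mean CPM went the other way (Timp1 1.03 in E3A/E3A and 1.01 in WT/WT, Col11a2 5.17 in E3A/E3A and 5.10 in WT/WT), so these estimates give no direction.

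The glycoproteins, elastin and Bgn had a median of 0.26, all 8 estimates were positive and 5 had p under 0.05 before adjustment. Sparc had 429, 390 and 443 CPM in E3A/E3A hearts and 380, 352 and 337 CPM in WT/WT hearts, a log2 fold change of 0.24 (SE 0.06, adjusted p = 0.149). Fbn1, the main protein of microfibrils, averaged 163 ± 9.55 CPM in E3A/E3A hearts and 139 ± 8.40 CPM in WT/WT hearts (0.23, adjusted p = 0.160). An annotated gene, Gm9913, covers 20.3% of its exon bases, and without a stated strand setting the reads of such overlapping genes cannot be told apart. Fn1, which links cells to fibrils, averaged 89.5 ± 8.39 CPM in E3A/E3A hearts and 74.4 ± 5.05 CPM in WT/WT hearts (0.27, adjusted p = 0.211). Eln had 89.3, 93.7 and 119 CPM in E3A/E3A hearts and 79.3, 74.2 and 68.2 CPM in WT/WT hearts, and its log2 fold change of 0.44 (SE 0.12) had an adjusted p of 0.329. Bgn averaged 213 ± 11.9 CPM in E3A/E3A hearts and 191 ± 8.13 CPM in WT/WT hearts (0.16, adjusted p = 0.407). Groups did not overlap for Sparc, Fbn1, Fn1, Eln and Bgn, while Postn, Thbs1 and Tnc, glycoproteins linked to remodelling, overlapped and had adjusted p of 0.783, 0.801 and 0.847.

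Timp2 had the lowest p of all members, with 128, 122 and 133 CPM in E3A/E3A hearts 3, 4 and 5 and 98.0, 108 and 109.8 CPM in WT/WT hearts 2, 3 and 4. The groups did not overlap, and the log2 fold change was 0.28 (SE 0.06, adjusted p = 0.118). Timp1, the inducible inhibitor, had 1.03 ± 0.309 CPM in E3A/E3A hearts and 1.01 ± 0.0990 CPM in WT/WT hearts, and Timp3 had 189, 195 and 324 CPM in E3A/E3A hearts against 232, 169 and 174 CPM in WT/WT hearts. In each group 1 heart stood above its mates in Timp3, and the groups overlapped. Mmp2, a gelatinase, averaged 64.4 ± 3.23 CPM in E3A/E3A hearts and 57.8 ± 2.04 CPM in WT/WT hearts (0.15, adjusted p = 0.472), and Mmp14, which activates it at the cell surface, averaged 22.6 ± 1.75 CPM in E3A/E3A hearts and 20.8 ± 1.202 CPM in WT/WT hearts (0.12, adjusted p = 0.779). Of the crosslinking enzymes, Loxl2 averaged 17.5 ± 2.14 CPM in E3A/E3A hearts and 13.6 ± 0.885 CPM in WT/WT hearts (0.36, SE 0.09, adjusted p = 0.164). Loxl1, needed for elastic fibres, had 49.5 ± 1.66 CPM in E3A/E3A hearts and 44.7 ± 1.51 CPM in WT/WT hearts (0.14, adjusted p = 0.430), and Lox had 6.31 ± 0.0407 CPM in E3A/E3A hearts and 5.82 ± 0.427 CPM in WT/WT hearts (0.12, adjusted p = 0.909).

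DESeq2, run as an alternative on the same 9 libraries, called 6 members with a higher level in E3A/E3A than in WT/WT, against 0.305% of the 11820 genes to which it gave an adjusted p. They were Eln (adjusted p = 0.00820), Timp2 (0.0140), Sparc (0.0235), Col1a1 (0.0310), Col5a1 (0.0346) and Fbn1 (0.0393). limma-voom with quality weights called Sparc alone among members (adjusted p = 0.0487), against 117 genes in all. With the title prefix as a block in edgeR, the median log2 fold change of the members was 0.18, against 0.0059 over all genes. Since C6 holds WT/WT hearts only and C4 holds none, this comparison then rests on WT/WT heart 2 alone. It is therefore given as an effect size and not as a test.

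The genotypes were not spread evenly over the prefixes, and this bears on the comparison with WT/WT. Within prefix C3, 44 of 47 members were higher in E3A/E3A hearts 3 and 5 than in WT/WT heart 2, with a median log2 difference of 0.20 against 0.00091 over all genes, and with 1 WT/WT heart there is no test. Within prefix C2, where every library is noted, 9 of 47 members were higher in E3A/E3A hearts 1 and 2 than in WT/WT heart 1, and the median was -0.60. Prefix C6 holds WT/WT hearts only and prefix C4 holds no WT/WT heart, so no value could be had there.

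**Figure D4:**
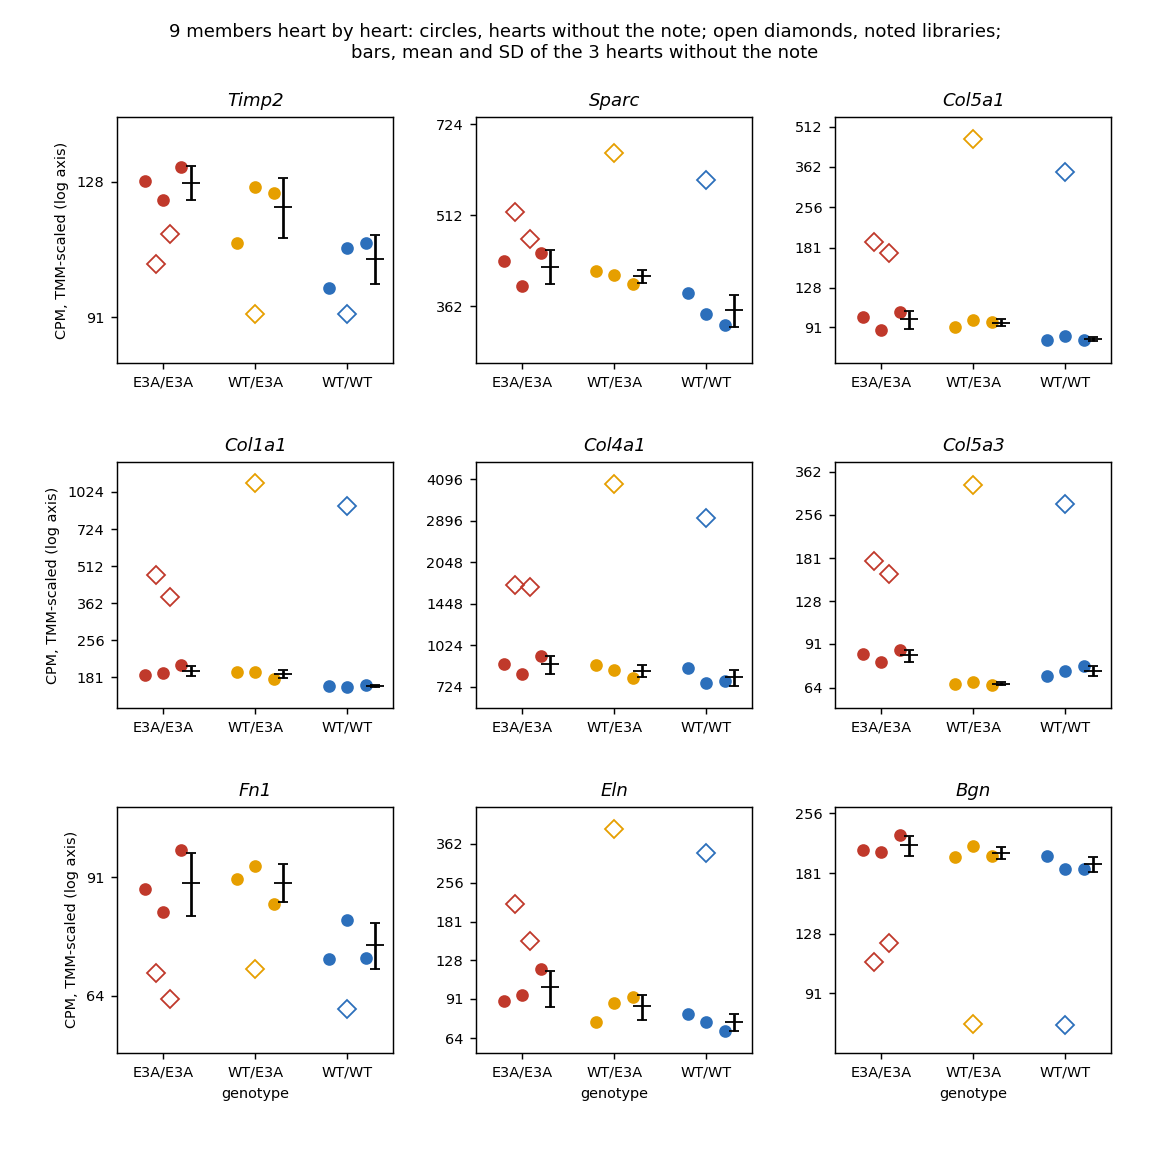
CPM of 9 members on log axes for E3A/E3A, WT/E3A and WT/WT hearts; filled circles are hearts without the note, open diamonds noted libraries, and bars the mean and SD of the 3 hearts without the note. The noted libraries lie far above the rest for the collagen chains and Eln and below it for Bgn and Fn1, and Timp2 circles lie at 122 to 133 CPM in E3A/E3A and 98.0 to 109.8 CPM in WT/WT hearts.

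WT/E3A hearts were set against the same WT/WT hearts, so the values below share their controls with those above. Without the noted libraries, 0 of 47 members were called, against 0.0209% of all genes, and the median log2 fold change was 0.12. An unadjusted p under 0.05 was reached by 10 members with a higher level, against 3.33% of all genes, and by 1 with a lower level, against 3.03% of all genes. In 12 members all WT/E3A hearts lay above all WT/WT hearts (6.44% of all genes), and in 2 they lay below (6.28%). Loxl2 averaged 17.3 ± 0.887 CPM in WT/E3A hearts and 13.6 ± 0.885 CPM in WT/WT hearts (0.35, SE 0.09, adjusted p = 0.539). Fn1 averaged 89.5 ± 5.03 CPM in WT/E3A hearts and 74.4 ± 5.05 CPM in WT/WT hearts (0.27, SE 0.07, adjusted p = 0.584). For both, the WT/E3A mean was close to that of E3A/E3A hearts given above. The member with the lower level was Col5a3.

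E3A/E3A hearts were set against WT/E3A hearts last. The median log2 fold change of the 47 members was 0.06, and 6 had p under 0.05 before adjustment with a higher level, against 4.04% of all genes. In 7 members the E3A/E3A hearts all lay above the WT/E3A hearts (5.68% of all genes), and in 1 they lay below (5.53%). Within prefix C3, 41 of 47 members were higher in E3A/E3A hearts 3 and 5 than in WT/E3A heart 2, with a median log2 difference of 0.11. Within prefix C4, 19 of 47 were higher in E3A/E3A heart 4 than in WT/E3A hearts 3 and 4, with a median of -0.027, so the direction over the members did not hold there. Of the 47 members 1, Col5a3, was called, where 0.0417% (6) of all genes were.

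Col5a3 encodes the third chain of type V collagen, which joins Col5a1 and Col5a2 chains in some tissues. It had 83.9, 78.5 and 86.4 CPM in E3A/E3A hearts 3, 4 and 5, 66.0, 67.0 and 65.5 CPM in WT/E3A hearts 2, 3 and 4, and 70.5, 73.0 and 76.4 CPM in WT/WT hearts 2, 3 and 4. No E3A/E3A heart overlapped with either other genotype, and WT/E3A hearts were the lowest. The log2 fold change of E3A/E3A over WT/E3A was 0.33 (SE 0.05, adjusted p = 0.0434), that of E3A/E3A over WT/WT was 0.18 (adjusted p = 0.260) and that of WT/E3A over WT/WT was -0.15 (adjusted p = 0.692). In the noted libraries Col5a3 had 177 and 159 CPM in E3A/E3A hearts 1 and 2, 325 CPM in WT/E3A heart 1 and 279 CPM in WT/WT heart 1, so that with all 13 libraries WT/E3A held the highest single value.

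The call on Col5a3 was close to its threshold. It held with DESeq2 (adjusted p = 0.000265), with 2 other scalings, with 2 other filters on low counts and without WT/WT heart 2. It did not hold with limma-voom and quality weights (0.0665), with the prefix as a block (0.195), with the 2 genotypes fitted alone (0.0856) or without any other single heart (0.0726 to 0.263), while the log2 fold change stayed between 0.29 and 0.36. Within prefix C3 the difference was 0.37 (2 hearts against 1) and within prefix C4, without the noted library, 0.24 (1 heart against 2). Per kilobase, Col5a3 over Col5a1 was 1.15 to 1.21 in E3A/E3A hearts, 0.942 to 0.990 in WT/E3A hearts and 1.18 to 1.29 in WT/WT hearts without the note. The ratio was thus low in WT/E3A hearts, and E3A/E3A and WT/WT hearts overlapped in it.

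Next in this comparison came Mmp14 with 22.6 ± 1.75 CPM in E3A/E3A hearts and 19.2 ± 1.37 CPM in WT/E3A hearts (0.24, adjusted p = 0.678) and Fbn1 with 163 ± 9.55 CPM in E3A/E3A hearts and 145 ± 4.72 CPM in WT/E3A hearts (0.17, adjusted p = 0.687). Col4a5, a chain of type IV collagen on the X chromosome, was the member that lay wholly lower, with 65.9 to 71.7 CPM in E3A/E3A hearts and 72.2 to 74.9 CPM in WT/E3A hearts (-0.10, adjusted p = 0.731).

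Genes that process collagen, carry TGF-beta signals or bind matrix at the cell surface were counted as 3 further lists, in the 9 libraries without the note. None of them held a called gene in any of the 3 comparisons. For E3A/E3A against WT/WT, 3 of 20 processing genes had p under 0.05 before adjustment with a higher level, against 4.52% of all genes, and 1 with a lower one, against 3.17%, with a list median of 0.06. With the title prefix as a block, where the comparison rests on WT/WT heart 2 alone, the list median was -0.012, with 10 genes higher and 10 lower. Without the block the 3 higher genes were Adamts2, which removes the amino-terminal propeptide of procollagen (37.4 ± 1.64 CPM in E3A/E3A hearts and 32.0 ± 1.88 CPM in WT/WT hearts, 0.23), its carboxy-terminal counterpart Bmp1 (0.13) and the enhancer of BMP1, Pcolce (0.18). Of the TGF-beta list 7 of 18 had such a p with a higher level and none with a lower one, with a median of 0.13, but with the prefix as a block 2 of 18 had one (3.37% of all genes). The 7 included the latency proteins Ltbp4, with 697 ± 9.87 CPM in E3A/E3A hearts and 632 ± 5.06 CPM in WT/WT hearts (0.14, adjusted p = 0.314), and Ltbp2 (0.35, adjusted p = 0.329). Of 13 receptor genes 2 had such a p with a higher level, the syndecan Sdc4 (0.22) and the fibronectin receptor chain Itga5 (0.17), and the list median was 0.11. With the prefix as a block the list median was 0.10, with 10 genes higher and 3 lower, against 7 higher and 6 lower without it.

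Cell-type markers were read beside these values, as summed CPM in the 9 hearts without the note. Fibroblast markers summed to 2015 to 2164 CPM in E3A/E3A hearts, 1873 to 2030 in WT/E3A hearts and 1858 to 1974 in WT/WT hearts, so that E3A/E3A and WT/WT hearts did not overlap. All 8 fibroblast markers had a positive estimate (median log2 fold change 0.13), and Pi16, a marker of an adventitial fibroblast state, was called, with 47.6 CPM in E3A/E3A hearts and 36.3 CPM in WT/WT hearts on average (0.39, adjusted p = 0.0212). With the prefix as a block, where the comparison rests on WT/WT heart 2 alone, the log2 fold change of Pi16 was 0.34. This value is an effect size and not a test. Smooth muscle and pericyte markers summed to 666 to 691 CPM in E3A/E3A hearts and 635 to 658 CPM in WT/WT hearts, also without overlap. Epicardial and mesothelial markers, all low, summed to 7.77 to 15.6 CPM in E3A/E3A hearts and 5.77 to 7.55 CPM in WT/WT hearts, and white adipocyte markers to 2.62 to 4.44 CPM in E3A/E3A hearts and 2.01 to 2.52 CPM in WT/WT hearts, both without overlap. Their median log2 fold changes were 1.03 (5 epicardial genes tested) and 0.51 (4 adipocyte genes tested), and none of these genes was called. All 5 epicardial estimates were positive, while 3 adipocyte genes were higher and 1 lower. Of the 8 smooth muscle and pericyte genes, 6 were higher and 2 lower. Once the fit also held the prefix, again resting on WT/WT heart 2, adipocyte genes had a median of 0.10 (2 higher, 2 lower). Smooth muscle and pericyte genes then had 0.061 (5 higher, 3 lower) and epicardial genes 1.84 (5 higher). Sums of cardiomyocyte, endothelial, macrophage, Schwann cell, atrial (median 0.84) and skeletal muscle markers overlapped between these genotypes. In the fit without the prefix, the median of the fibroblast markers (0.13) was of a size with that of the 47 matrix members (0.17). So were those of smooth muscle and pericyte (0.17), macrophage (0.14), Schwann cell (0.12) and skeletal muscle markers (0.16). Those of endothelial (0.011) and cardiomyocyte markers (0.035) were smaller. The closeness was thus not particular to fibroblasts, and the part of any of these cell types in the matrix values was not tested. GC content, which went with the noted libraries, had a Spearman's rho of 0.22 with the log2 fold change of E3A/E3A over WT/WT across 13718 genes in these 9 libraries (Pearson's r 0.15), and -0.19 across the 47 members (r -0.24).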

How the data were processed

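RNA-seq read counts per gene symbol were deposited by the authors, 1 file for each of the 13 hearts. The submitters' processing notes name STAR 2.4.0, featureCounts 1.4.4 and the mouse build mm10 (GRCm38). Whether counting used strand, and what was done with reads of more than 1 place or gene, is not given in the sources used here. Groups came from the genotype labels. Replicate numbers are names in accession order and pair no samples.

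Counts were fitted with edgeR 4.0.16 (R 4.3.3; filterByExpr, TMM scaling, robust quasi-likelihood F test) across all genes passing the filter, 14387 in 13 libraries and 14373 in 9, with p-values adjusted by Benjamini-Hochberg and a call at 0.05. All 47 members passed both filters. CPM are TMM-scaled over 13 libraries. Differences within a prefix and noted ratios used log2(CPM + 0.1). Lengths and GC content came from the longest coding transcript in GENCODE M21. DESeq2 1.42.0 and limma 3.58.1 (voom with quality weights), other scalings and filters, the prefix as a block, the note as a covariate, 2 groups alone and each library left out were alternatives. The fit was tested on simulated data.

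Members with values were those called, the 8 with the smallest p in each comparison and fit, the 12 highest per length and the 16 listed by name. The members and gene lists were chosen with earlier results of these data known.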

Additional observations from a re-analysis of the deposited data

Results flagged for a closer look

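Of 99 groups of 4 or 5 hearts (33 members with values, 3 genotypes), 36 held 1 heart far from its mates. All members were measured in the same libraries, so these groups are not independent and their number was not set against chance. Every such heart was a noted library, heart 1 of WT/E3A or heart 1 of WT/WT. None was found in E3A/E3A, where 2 of 5 libraries are noted and a single distant heart is what the rule looks for.

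Heart 1 of WT/E3A stood above the other 3 WT/E3A hearts in 18 members. The collagen chains were, in CPM, Col15a1 480.1, Col1a1 1111, Col1a2 936, Col22a1 15.3, Col28a1 5.33, Col3a1 2098, Col4a1 3928, Col4a2 2721, Col4a3 28.4, Col4a5 278, Col5a1 459, Col5a3 325, Col6a1 471 and Col6a2 395. The other members were Eln 415, Fbn1 241, Loxl1 73.2 and Sparc 648 CPM. It stood below them in 2, with Bgn 76.2 and Loxl2 7.95 CPM.

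Heart 1 of WT/WT stood above the other 3 WT/WT hearts in 15 members. The collagen chains were, in CPM, Col15a1 372, Col1a1 897.5, Col1a2 737, Col28a1 3.34, Col3a1 1621, Col4a1 2974, Col4a2 2167, Col4a3 20.7, Col4a5 193, Col5a1 346, Col5a3 279, Col6a1 359 and Col6a2 313. The other members were Eln 333 and Loxl1 72.8 CPM. It stood below them in 1, with Bgn 75.8 CPM. The GC content and marker values that moved with these libraries are given above, and their part was not tested.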

How the results depend on the processing

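No call on a member was made with all 13 libraries under any alternative. With 9 libraries the median log2 fold change of the members stayed positive in every alternative, at 0.13 to 0.21 (E3A/E3A against WT/WT), 0.063 to 0.15 (WT/E3A against WT/WT) and 0.013 to 0.11 (E3A/E3A against WT/E3A). With 13 libraries it changed sign in all 3 comparisons (-0.21 to 0.40, -0.37 to 0.75 and -0.36 to 0.30). Of 1683 values of single members in 9 libraries none reversed as a called value, 11 lost and 9 gained a call, and 50 uncalled estimates changed sign, against 181 of 2178 in 13 libraries. The causes were not tested. No paired analysis was possible because the replicate numbers are only names in accession order.

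For E3A/E3A against WT/WT with 13 libraries (1 gene called), DESeq2 called 24 genes, voom with quality weights 73, the note as covariate 8, and no filter, the prefix block and the 2 groups alone 0 each. Leaving out 1 library gave 0 to 1. Members with an unadjusted p under 0.05 and a higher level (0 in the main fit) were 13 with voom, 1 with the prefix block, 6 with the note as covariate and 2 with the 2 groups alone, and 0 to 2 with 1 library left out. For WT/E3A against WT/WT (0 genes called), voom called 5 genes, and such members were 5 with voom, 2 with the note as covariate and 0 to 2 with 1 library left out. For E3A/E3A against WT/E3A (0 genes called), DESeq2 called 3 genes, voom 5 and the note as covariate 1. Such members were 4 with voom, 1 with the note as covariate and 0 to 2 with 1 library left out, and 5 had a lower level with the note as covariate.

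For E3A/E3A against WT/WT with 9 libraries (39 genes called), DESeq2 called 97 genes, voom 117 and the prefix block 10, and leaving out 1 library gave 8 to 43. Called members (0 in the main fit) were 6 with DESeq2, 1 with no filter (Timp2), 1 with voom (Sparc) and 0 to 1 with 1 library left out, the 1 being Col5a1 without E3A/E3A heart 4. For WT/E3A against WT/WT (3 genes called), DESeq2 called 18 genes, no filter 5, voom 6, the prefix block 0, the 2 groups alone 8, and leaving out 1 library gave 0 to 12. Members with a lower level (1 in the main fit) were 2 with upper-quartile scaling, 2 with voom, 0 with the prefix block and 0 to 3 with 1 library left out. For E3A/E3A against WT/E3A (6 genes called), DESeq2 called 34 genes, no filter 10, the prefix block 2, and leaving out 1 library gave 1 to 13. Called members (1, Col5a3) were 0 with voom, the prefix block and the 2 groups alone, and 0 to 1 with 1 library left out. Members with a higher level (6) were 3 with the prefix block and 2 to 7 with 1 library left out, and with a lower level (0) 1 with voom and 0 to 2 with 1 library left out.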
